A study of Drosophila melanogaster with 24 samples.

Results

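The core cell death genes of Drosophila were examined in RNA of wing imaginal discs, the larval epithelia from which the wings of the fly develop. The set has 10 genes listed by name: the death activators rpr, hid, grim and skl, the caspase inhibitor Diap1, the caspases Dronc, Drice and Dcp-1, the caspase activator Dark, and p53. A gene was taken up where the platform annotation names it for a spotted feature, and a gene with several features entered as their mean. Of the 10 genes, 6 had a named feature among the 8975 genes named on the array: grim, skl, Dronc, Dcp-1 and Dark with 1 feature each and p53 with 2 features. The genes rpr, hid, Diap1 and Drice were not analysed here.

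Each of 24 arrays compared discs labelled tub>dmyc>Gal4, in which cell competition takes place, with control discs labelled tub>cd2>Gal4, both from third-instar larvae. In such constructs the tubulin promoter, active in all cells, drives the Drosophila Myc gene or the inert marker cd2 from a cassette that can be flipped out, which leaves clones that express Gal4. Larvae of both genotypes had a heat shock of 15 min at 37 °C to make clones with many borders between marked and unmarked cells. The times were 0, 12, 24 and 48 h, each with 6 arrays, and the labels do not say how many discs or larvae went into a sample. The RNA is of whole discs, so winner and loser cells were not measured apart. Fewer cells of a type cannot be told apart from less RNA per cell. If the times count from clone induction, discs at 0 h need not yet hold both kinds of cell.

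In the fly, caspases are kept in check by inhibitor of apoptosis proteins (IAPs), chiefly Diap1. The proteins of rpr, hid, grim and skl bind the IAPs and release the caspases, Dark assembles the platform on which the initiator caspase Dronc becomes active, and Dronc cleaves the effector caspases Drice and Dcp-1. The transcription factor p53 can switch on rpr, hid and skl after DNA damage. In wing discs that mosaically differ in Myc, cells with less Myc are known to be eliminated by apoptosis. Caspases act through cleavage of their precursors, which an array of RNA does not measure.

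Every value below is a log2 ratio of dmyc over cd2 discs on the same array, or a difference between such ratios, so negative values mean lower RNA in dmyc discs. A ratio carries no level, so neither the abundance of a gene nor the labelled tissue could be checked against marker levels. The dyes are given in the labels, and the direction of the ratio is likely rather than certain, since only the sample titles, which name dmyc before cd2, give it. Arrays of the same dye orientation correlated at -0.01 to 0.50 within a time, but 8 of all 132 such pairs, within and across times, fell below -0.3. All 8 pairs set a 0 h array against a 12 or 24 h array, with the lowest value, -0.75, between 0 h replicate 3 and 12 h replicate 3. The direction as deposited was kept.

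Differences were tested with limma over all 10627 features, and a gene was called where its Benjamini-Hochberg adjusted p was under 0.05. At 0 h 12.1% of all features were called, and 1 of 6 members (Dronc, lower). At 12 h the share was 8.32%, with 0 of 6 members. At 24 h 8.15% of features were called, and 2 of 6 members (Dcp-1 and Dark, both lower). At 48 h the share was 6.25%, with 0 of 6 members. The mean over the 4 times was called for 13% of features and for 1 member, Dronc. The change against 0 h was called for 23.9% of features at 12 h, with 1 member, for 20.4% at 24 h, with 2 members, and for 6.23% at 48 h, with 0 members. Any change over time was called for 19.7% of features and for 2 members, Dronc and Dcp-1, and the dye coefficient for 11.1% of features and 0 members. With 6 genes tested, 0 to 2 calls in a test are too few to set the members apart from these shares.

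The labels give no pairing of arrays. Arrays of opposite dye at the same time were therefore paired by their best correlation, with r of 0.52 to 0.90 within the chosen pairs. Arrays of the same dye orientation reached at most 0.50 within a time. Such a choice gives pairs in any data, so it cannot show that partners are a dye swap of the same RNA. With these pairs as a random block in the fit, fewer features were called, with 4.83% for 0 h, 1.35% for 12 h, 1.6% for 24 h and 1.91% for 48 h. The mean over the 4 times was then called for 5.53%, the changes against 0 h for 12.4% at 12 h, 8.66% at 24 h and 0.132% at 48 h, and any change over time for 6.93%. The members called in that fit were Dronc at 0 h and Dcp-1 for the change at 24 h. If the paired arrays share an RNA extract, each time rests on 3 independent samples, and p-values that count 6 arrays are too small.

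**Figure D1:**
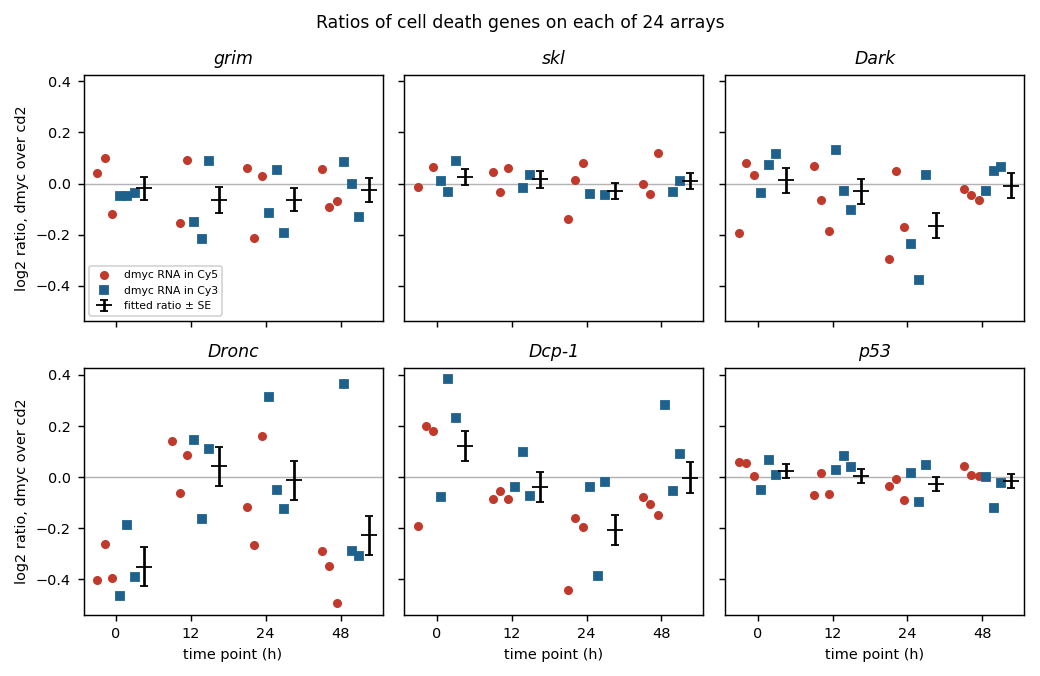
Log2 ratio of dmyc over cd2 discs (vertical axis) on each array for the 6 measured genes at 0, 12, 24 and 48 h (horizontal axis). Red circles are arrays with dmyc RNA in Cy5, blue squares arrays with it in Cy3, and black bars the fitted ratio ± SE. All 6 arrays lie below 0 for Dronc at 0 h and for Dcp-1 at 24 h.

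Of the IAP antagonists, the 2 that were measured, grim and skl, passed no test. The ratio of grim, whose protein binds Diap1, ran from -0.119 to 0.1 on the 6 arrays at 0 h, with a median of -0.0425. It ran from -0.215 to 0.093 on 5 arrays at 12 h, from -0.213 to 0.062 on 6 arrays at 24 h and from -0.131 to 0.086 on 6 arrays at 48 h. At each time arrays lay on both sides of 0. The fitted ratio of grim was -0.02, -0.06, -0.06 and -0.02 at 0, 12, 24 and 48 h, with adjusted p-values between 0.417 and 0.841. The 95% intervals of the single times lay between -0.17 and 0.08, so a difference beyond these bounds lies outside them at each time.

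Sickle (skl), which lies beside rpr, hid and grim in the genome and is also induced by p53, ran from -0.033 to 0.089 on 5 arrays at 0 h and from -0.031 to 0.061 on 5 arrays at 12 h. At 24 h it ran from -0.139 to 0.08 and at 48 h from -0.041 to 0.119, again on 5 arrays each. These values straddled 0 at every time. The fitted ratios of skl were 0.03, 0.02, -0.03 and 0.01, with intervals that reached from -0.0966 to 0.0932.

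Dronc, the initiator caspase and the fly counterpart of mammalian caspase-9, was lower in dmyc discs at 0 h. Its ratio there was -0.467 at the lowest, -0.3925 at the median and -0.186 at the highest of 6 arrays, and all 6 lay below 0. The fitted ratio was -0.35 ± 0.08 (SE, n = 6 arrays; adjusted p = 0.00571), a level in dmyc discs of 0.784 times that in cd2 discs, with a 95% interval of 0.702 to 0.877. The ratio was the same in both dye orientations, with means of -0.35 for dmyc in Cy5 and -0.35 for dmyc in Cy3.

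At 12 h the ratio of Dronc ran from -0.165 to 0.145 with a median of 0.098, and at 24 h from -0.264 to 0.313 with a median of -0.0825. Arrays at both times lay on both sides of 0. At 48 h it ran from -0.494 to 0.363 with a median of -0.2985, and 5 of 6 arrays lay below 0. The high array at 48 h was replicate 4, at 0.363, while the other 5 ran from -0.494 to -0.289. The fitted ratios were 0.04 at 12 h (adjusted p = 0.789), -0.01 at 24 h (0.938) and -0.23 at 48 h (0.0822). Without replicate 4 the ratio at 48 h was -0.34, with an adjusted p of 0.00286. Leaving out the high array had to lower the ratio, so this value is no independent support.

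The ratio of Dronc at 12 h therefore exceeded that at 0 h by 0.39 ± 0.11 (adjusted p = 0.0122), and that at 24 h exceeded it by 0.34 ± 0.11 (0.0329). The difference at 48 h was 0.12 ± 0.11 (0.496). Averaged over the 4 times the ratio was -0.14 ± 0.04 (0.0219). With dye-swap partners as a random block the call at 0 h was kept (adjusted p = 0.0307), while the others were lost: 0.0510 for 12 h against 0 h, 0.108 for 24 h against 0 h and 0.0824 over the times. With partners averaged, which leaves 3 values per time, the ratio at 0 h had an adjusted p of 0.145, and without partner replicates 3 and 6 it was -0.33 (0.0865). The difference at 24 h also lost its call without any 1 of 0 h replicates 3, 4 and 6 or 24 h replicates 3 and 4.

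Dark, the fly relative of mammalian Apaf-1 and the scaffold of the apoptosome, was near 0 at 0, 12 and 48 h and lower at 24 h. Its ratio ran from -0.193 to 0.115 at 0 h, from -0.187 to 0.131 at 12 h and from -0.064 to 0.064 at 48 h, with arrays on both sides of 0 at each. At 24 h it ran from -0.376 to 0.051 with a median of -0.2015, and 4 of 6 arrays lay below 0. The fitted ratio at 24 h was -0.17 ± 0.05 (adjusted p = 0.0422), or 0.892 times the level in cd2 discs. It was not called with partners as a random block (adjusted p = 0.120) or averaged (0.335), and without partner replicates 1 and 5, the lowest pair, it was -0.08. Leaving out any 1 of 24 h replicates 1, 3, 4 and 5 also ended the call. Against 0 h the ratio of Dark at 24 h was -0.18 ± 0.07 (0.0764), a difference called under 6 of 52 alternatives of the processing.

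Dcp-1, an effector caspase that Dronc activates, was lower in dmyc discs at 24 h. Its ratio at 24 h ran from -0.441 to -0.021 with a median of -0.1775, and all 6 arrays lay below 0. The fitted ratio was -0.21 ± 0.06 (adjusted p = 0.0358), or 0.866 times the level in cd2 discs with a 95% interval of 0.795 to 0.944. The pair means of dye-swap partners were -0.41, -0.09 and -0.12, so 1 pair carried most of the difference. Without that pair, replicates 1 and 5, the ratio was -0.10 (adjusted p = 0.400), and leaving out any 1 of replicates 1, 3 and 5 ended the call.

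At 0 h the ratio of Dcp-1 ran from -0.192 to 0.383 with a median of 0.191, and 4 of 6 arrays lay above 0. The 2 arrays below 0 were replicates 1 and 4, a dye-swap pair. The fitted ratio was 0.12 ± 0.06 (adjusted p = 0.194), and 0.25 without that pair (0.00653). Leaving out the 2 arrays below 0 had to raise the ratio, so the second value is no independent support. At 12 h the ratio ran from -0.085 to 0.1 and at 48 h from -0.15 to 0.284, with fitted values of -0.04 and 0.00. The difference between 24 and 0 h was -0.33 ± 0.08 (adjusted p = 0.00985), and it was called with partners as a random block (0.0308) but not with partners averaged (0.148). Of the changes against 0 h, this was the only one of a member that was called in the random-block fit.

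**Figure D2:**
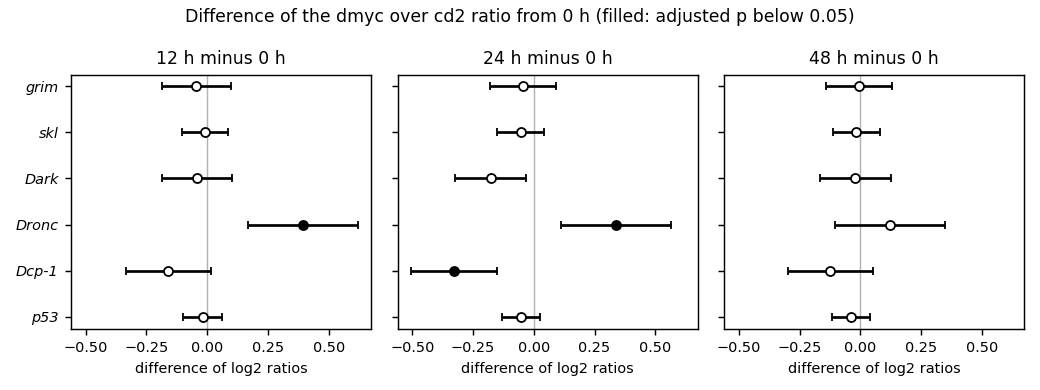
Difference of the log2 ratio of dmyc over cd2 discs at 12, 24 and 48 h from that at 0 h (horizontal axes, log2 units) for the 6 measured genes (rows), with bars for 95% intervals and filled points where the adjusted p is under 0.05. Filled are Dronc at 12 h (0.39) and 24 h (0.34) and Dcp-1 at 24 h (-0.33).

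The transcription factor p53 passed no test. The mean of its 2 features ran from -0.051 to 0.066 at 0 h, from -0.07 to 0.084 at 12 h, from -0.098 to 0.047 at 24 h and from -0.122 to 0.044 at 48 h. The arrays straddled 0 at every time, and the SDs over 6 arrays were between 0.045 and 0.060. The fitted ratios were 0.02, 0.00, -0.03 and -0.01, with 95% intervals that reached from -0.0836 to 0.0801 (adjusted p from 0.565 to 0.944). The features differed from each other most at 12 h, at -0.04 and 0.05. The activity of the p53 protein is controlled largely after translation, which these arrays do not measure.

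Across all 24 arrays, Dcp-1 and Dark moved together most among the member pairs, with a Pearson correlation of 0.69. Dcp-1 and p53 correlated at 0.47, Dark and p53 at 0.30, and grim and Dark at -0.41 over 23 arrays. Dronc was near unrelated to Dcp-1, at -0.02. The values share arrays, dyes and amplification, so these correlations are given as a description. At 24 h the partner pair of replicates 1 and 5 was low for both Dcp-1 and Dark, with pair means of -0.41 and -0.34. That pair also stood apart in fat body markers: the mean ratio of 8 such markers was 0.98 and 1.00 on replicates 1 and 5, against -0.37 to -0.22 on the other 4 arrays of 24 h. At 0 h the same mean was 0.52 and 0.59 on replicates 1 and 4, where Dcp-1 lay below 0, and -0.72 and -0.52 on replicates 2 and 5, where Dcp-1 was at 0.2 and 0.383. On 0 h replicates 3 and 6 the mean was 0.17 and 0.16, with Dcp-1 at 0.182 and 0.231. At 12 h it was 0.80 and 0.78 on replicates 1 and 4, where Dcp-1 was at -0.085 and -0.038 and Dark at 0.067 and 0.131. At 48 h it ran from 0.31 to 0.93, with Dcp-1 from -0.15 to 0.284 and Dark from -0.064 to 0.064. The part of fat body RNA in the ratios of Dcp-1 and Dark was not tested.

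**Figure D3:**
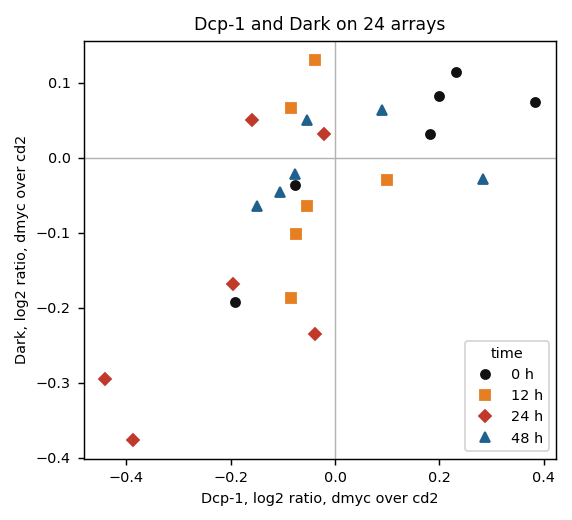
Log2 ratio of Dark (vertical axis) against Dcp-1 (horizontal axis) on the 24 arrays, both in log2 units, with colour and shape for the time. The correlation is 0.69, and the lowest values of both genes are 2 arrays of 24 h, replicates 1 and 5.

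Among 6948 genes with all 24 arrays measured, the profiles most like that of Dronc over the arrays were CG14646 (r = 0.87), cib (0.85) and Pak3 (0.82). The ratio of cib, which encodes the actin-binding protein ciboulot, was -0.40, 0.15, -0.08 and -0.22 at 0, 12, 24 and 48 h. The profiles most like Dcp-1 were dnt (0.87), CG11307 (0.85) and Vti1b (0.83), and those most like Dark were Mgtor (0.83), Fer2LCH (0.80) and CG7139 (0.80). The ratio of Mgtor was 0.10, -0.18, -0.39 and -0.17 at the 4 times.

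The other genes of the pathway were taken from lists of regulators, adaptors and targets, 40 of whose 59 genes were measured. Of the 40, 0 were called higher and 4 lower at 0 h, 7 higher and 1 lower at 12 h, 2 higher and 4 lower at 24 h, and 4 higher and 1 lower at 48 h. These are 10%, 20%, 15% and 12.5% of the 40 at the successive times, beside 12.1%, 8.32%, 8.15% and 6.25% of all features. With partners as a random block 1, 1, 2 and 2 of the 40 were called, beside 4.83%, 1.35%, 1.6% and 1.91% of all features. These were Bruce at 0 h, Ku80 at 12 h, Traf6 and lok at 24 h, and puc and Drep1 at 48 h. All other calls at single times given below were lost in that fit. At 0, 12, 24 and 48 h their median ratios were -0.03, 0.03, 0.02 and 0.02, beside medians of 0.00 over all features at each time. Against 0 h, 12 of 40 were called at 12 h (11 higher and 1 lower), 10 at 24 h (7 higher and 3 lower) and 8 at 48 h (7 higher and 1 lower). Their shares, 30% at 12 h, 25% at 24 h and 20% at 48 h, stand beside 23.9%, 20.4% and 6.23% of all features. With partners as a random block the counts against 0 h were 8 at 12 h, 4 at 24 h and 1 (puc) at 48 h, beside 12.4%, 8.66% and 0.132% of all features. In all, 22 of the 40 were called in at least 1 test and 5 of these, Bruce, puc, lok, Ku80 and mre11, also with partners averaged. The share of all features called in at least 1 test was not counted in either fit, so neither 22 nor 5 of 40 can be read as an excess. Of 59 called results of these genes, 29 lost the call on leaving out 1 or more single arrays.

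Of the remaining IAPs, 3 were measured. Bruce, a giant IAP-family protein that restrains rpr- and grim-dependent death, had a ratio between -0.561 and -0.171 on the 6 arrays at 0 h, all below 0, and between 0.061 and 0.459 at 12 h, all above 0. The fitted ratios were -0.35 ± 0.06 at 0 h (adjusted p = 0.00146; 0.00788 with partners as a random block) and 0.25 ± 0.06 at 12 h (0.0174). The call at 12 h ended without 12 h replicate 3 or replicate 6 and with partners as a random block. The ratio exceeded that at 0 h by 0.60 ± 0.09 at 12 h (0.000147) and by 0.43 ± 0.09 at 24 h (0.00247). Diap2, an IAP with a role in innate immunity, had a ratio of -0.19 ± 0.05 at 24 h (adjusted p = 0.0190), a call that ended without any 1 of 24 h replicates 1, 3 and 5, and -0.27 ± 0.07 against 0 h (0.00828). Of the other caspases, Dredd, the apical caspase of the immune deficiency pathway, was -0.14 ± 0.05 at 12 h (0.0495) and -0.18 ± 0.05 at 48 h (0.0356) against 0 h, and neither call held with partners as a random block.

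Among the TNF and death adaptor genes 7 were measured. The TNF receptor wgn had a ratio below 0 on 5 of 6 arrays at 0 h, at -0.11 ± 0.03 (adjusted p = 0.0116; the call ended without 0 h replicate 6), and above 0 on all 6 arrays at 24 h, at 0.13 ± 0.03 (0.00876; 0.0907 with partners as a random block). Traf6, an adaptor of TNF receptor signalling, lay below 0 on all 6 arrays at 24 h, between -0.392 and -0.148, at -0.29 ± 0.05 (0.00358; 0.0219 with partners as a random block). puc, the phosphatase that shuts off JNK signalling and is itself induced by it, lay above 0 on all 6 arrays at 48 h, between 0.076 and 0.428, at 0.27 ± 0.04 (8.83e-05; 0.0397 with partners averaged). At 24 h puc was at -0.12 ± 0.04 (0.0398), a call that ended without any 1 of 24 h replicates 2, 3, 5 and 6. The adaptor Fadd was at 0.12 ± 0.04 at 12 h (0.0374), a call that ended without any 1 of 5 of the arrays of that time.

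Of the p53 and DNA damage genes 10 were measured. lok, the checkpoint kinase that phosphorylates p53, lay below 0 on all 6 arrays at 24 h, between -0.562 and -0.078, and on all 6 at 48 h. Its fitted ratio was -0.26 ± 0.05 at 24 h (adjusted p = 0.00463) and -0.16 ± 0.03 over the 4 times (0.000196; 0.0341 with partners averaged). Ku80, a subunit of the end-joining complex, lay above 0 on all 6 arrays at 12 h, between 0.201 and 0.455, at 0.33 ± 0.04 (0.000197). mre11 and nbs, partners in the complex that senses double-strand breaks, rose against 0 h by 0.42 ± 0.08 (0.00108) and 0.35 ± 0.08 (0.00250) at 12 h. RnrL, a ribonucleotide reductase subunit, rose against 0 h by 0.66 ± 0.19 (0.0138) at 12 h. Its ratio at 12 h was uneven, from -0.108 to 1.055 with a median of 0.02, and 3 arrays lay above and 2 below 0. The call of this RnrL difference held in the random-block fit (adjusted p = 0.0273). It was lost once partners were averaged (0.158). grp, the Chk1 kinase, was at 0.23 ± 0.06 at 48 h (0.0240), a call that ended without any 1 of 48 h replicates 1, 2, 3 and 5.

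Of the genes for nuclear breakdown, Drep1, which encodes an inhibitor of the caspase-activated nuclease, was above 0 on all 6 arrays at 48 h, between 0.255 and 0.903, at 0.57 ± 0.08 (adjusted p = 0.000174; 0.00103 with partners as a random block). Of 5 genes for clearance of dying cells, ced-6 and pall, which act in engulfment of apoptotic cells, were at 0.16 ± 0.04 (0.0194) and 0.17 ± 0.05 (0.0455) at 12 h. The call of ced-6 ended without 12 h replicate 1 or replicate 3, and that of pall without any 1 of 13 arrays. The growth regulator yki, known as an inducer of Diap1, was at -0.29 ± 0.08 at 0 h (0.0221), with 5 of 6 arrays below 0, and its ratio at 12 h exceeded that at 0 h by 0.50 ± 0.12 (0.00393). The call of yki at 0 h ended without any 1 of 0 h replicates 2, 3, 5 and 6.

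The remaining pathway genes with a call were called in 1 test each, and none of these calls held with partners as a random block. grnd, the second TNF receptor of the fly, exceeded its 0 h ratio by 0.33 ± 0.11 at 24 h (adjusted p = 0.0366), and Corp, an inhibitor of p53, by 0.20 ± 0.06 at 24 h (0.0308). Irbp, the Ku70 partner of Ku80, exceeded its 0 h ratio by 0.14 ± 0.05 at 12 h (0.0335). Over the 4 times together eIF3m, also known as the apoptosome cofactor Tango7, averaged 0.14 ± 0.04 (0.0137) and scyl, a stress-induced growth inhibitor, averaged -0.27 ± 0.09 (0.0413).

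**Figure D4:**
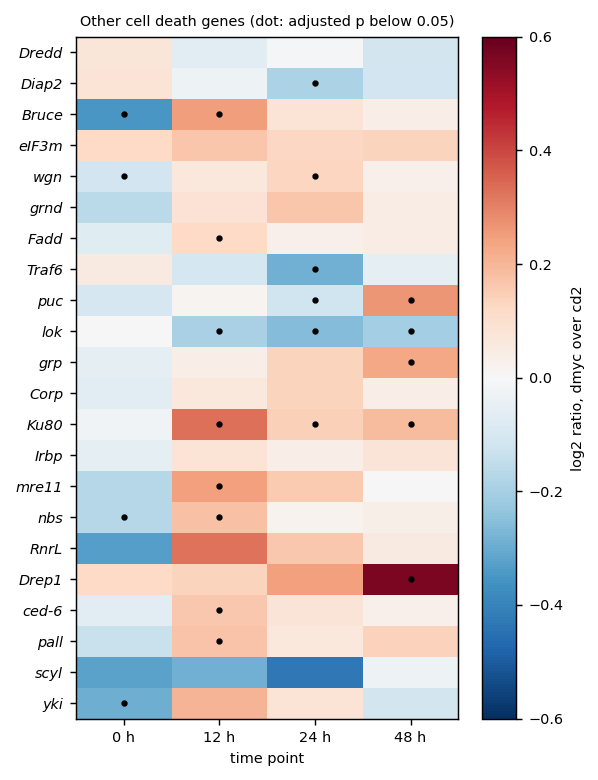
Fitted log2 ratio of dmyc over cd2 discs of the pathway genes called in 1 or more tests (rows), at 0, 12, 24 and 48 h (columns), with red above and blue below 0 and a dot where the adjusted p is under 0.05. Bruce is at -0.35 at 0 h and 0.25 at 12 h, and Drep1 is at 0.57 at 48 h.

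Mean ratios of markers of tissues that a dissected disc can carry along also lay off 0 at some of these times. Of 4 measured tracheal markers, 3 were called lower at 0 h and 2 higher at 12 h, and their mean ratio on an array ran from -0.51 to -0.09 at 0 h and from 0.14 to 0.41 at 12 h. The mean of 8 fat body markers ran from -0.72 to 0.59 at 0 h, from -0.17 to 0.80 at 12 h, from -0.37 to 1.00 at 24 h and from 0.31 to 0.93 at 48 h, and at 48 h it was above 0 on all 6 arrays. Of these 8 markers, which include the yolk protein genes Yp1, Yp2 and Yp3, 0 were called at 0 h and at 12 h. At 24 h and at 48 h 1 was called, higher each time. The fitted ratios at 48 h had a median of 0.27 and a highest value of 2.22. The mean of 4 markers of adepithelial myoblasts, the muscle precursors beneath the disc epithelium, was below 0 on all 6 arrays at 0 h (-0.373 to -0.005) and at 24 h (-0.08 to -0.02), and that of 6 hemocyte markers lay on both sides of 0 at every time. Of the 4 myoblast markers, 0 were called at each single time. Of 12 wing disc epithelium markers, 1 was called higher and 3 lower at 0 h. The part of these shifts in the ratios of Dronc, Dcp-1, Dark and the called pathway genes was not tested.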

How the data were processed

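Wing disc RNA was measured on 24 arrays of 2 colours, with dmyc RNA in Cy5 on replicates 1 to 3 and in Cy3 on replicates 4 to 6 of each time. Per the labels' protocols, RNA was amplified in 2 rounds of transcription before labelling. The deposited table holds 1 log2 ratio per feature and array, centred near 0 (array medians -0.009 to 0.008). That base 2 was used was assumed, and that the values are ratios was read from their spread around 0. No source used here gives the scanner, background correction or normalization, and signal over background, hence the precision of single features, is unknown.

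Of 12359 features, 169 at inferred control positions were left out. Of the rest, 10289 named 1 gene, 56 several and 1845 none, and 9896 matched the RefSeq gene table of Release 6. Arrays were centred on their medians, features of a gene averaged, and genes kept that had at least 4 of 6 values at every time, which left 10627 features with 1.58% of values missing. The fit in limma 3.58.1 (R 4.3.3, lmFit and eBayes) had 1 coefficient per time and 1 for dye over all arrays, with Benjamini-Hochberg adjustment over all features and a threshold of 0.05, and was tested on simulated data. The simulated noise was independent between arrays, so it cannot show how p-values behave where partners correlate. Dye-swap partners were arrays of opposite dye at the same time that correlated best. They were replicates 1 and 4, replicates 2 and 5, and replicates 3 and 6, except at 24 h, where replicate 1 went with 5, replicate 2 with 6 and replicate 3 with 4, and the fitted correlation within partners was 0.444. Both the pairs and this correlation come from the same values that were tested. No label says whether replicates came from separate larvae, so p-values measure the spread between these arrays, which may be technical.

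The members, gene lists and alternatives were chosen with earlier results of these data known. Named are all members, and every listed pathway gene that passed a test. Pathway gene lists were described by counts and medians. The 3 genes most correlated over the arrays were named for members with a call. The alternatives changed the centring, scaling, normalization, minimum of values, dye term, pairing, array weights, spread estimate, arrays used and the direction of replicates 4 to 6, or left out each array or pair.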

Additional observations from a re-analysis of the deposited data

Results flagged for a closer look

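In 5 of 112 groups of arrays tested, 1 array stood far from the others by Dixon's criterion, close to the 1 in 20 that chance gives. Among the members these were Dronc at 48 h, where replicate 4 was at 0.363, and Dcp-1 at 12 h, where replicate 5 was at 0.1. Among the pathway genes they were Corp at 24 h (replicate 4 at -0.128), ced-6 at 0 h (replicate 3 at -0.208) and pall at 12 h (replicate 1 at 0.584).

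The remaining results are log2 ratios that differed from those at 0 h in the fit's own test of the difference. For the members these were Dronc, by 0.393 at 12 h and 0.337 at 24 h, and Dcp-1, by -0.328 at 24 h. The 0 h arrays enter every such difference.

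At 12 h the differences from 0 h were 0.6 for Bruce, 0.658 for RnrL, 0.497 for yki, 0.417 for mre11, 0.352 for Ku80 and 0.347 for nbs. Smaller ones at 12 h were 0.306 for pall, 0.233 for ced-6, 0.195 for Fadd, 0.177 for wgn, 0.143 for Irbp and -0.14 for Dredd. At 24 h they were 0.429 for Bruce, 0.375 for yki, 0.328 for mre11, 0.327 for grnd, 0.241 for wgn, 0.199 for Corp and 0.166 for Ku80. Negative differences at 24 h were -0.343 for Traf6, -0.271 for Diap2 and -0.255 for lok. At 48 h the differences were 0.446 for Drep1, 0.388 for Bruce, 0.367 for puc, 0.289 for grp, 0.271 for pall, 0.21 for Ku80, 0.145 for wgn and -0.185 for Dredd.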

How the results depend on the processing

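Counts of called members are out of 6. With dye-swap partners averaged, 0 members were called in every test that had called any, and over all features limma called 0 at 0, 12 and 24 h, for 24 and 48 h against 0 h and for any change over time, where 1722, 1486, 1429, 2329, 1451 and 1826 had an unadjusted p under 0.05. With partners as a random block, 0 were called at 24 h, over the times, for 12 h against 0 h and for any change, and 1 for 24 h against 0 h. Members called fell to 0 in all of these tests with replicates 4 to 6 turned round or alone, and with replicates 1 to 3 alone in all but the mean over the times. Turning replicates 4 to 6 round sets the dye orientations against each other. A ratio alike in both had to cancel, so the loss of calls in that setting says nothing about the members. Array weights gave 2 at 0 h, 1 at 48 h and 2 for 12 h against 0 h. For 24 h against 0 h they called Dark (adjusted p = 0.00800) beside Dronc and Dcp-1. Quantile normalization gave 1 for 24 h against 0 h and 1 for any change, no dye coefficient 1 at 24 h and 1 for any change, and the arrays of 24 h alone 0.

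Across times the replicate numbers did not consistently mark the arrays most alike: the best match in another time carried the same number for 8 of 24. A replicate block gave 1 member at 24 h and 1 for any change over time, and left Dronc at 0 h with an adjusted p of 0.00611.

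Leaving out single arrays gave 0 to 2 members at 24 h and 0 to 1 at 48 h. It gave 1 or more for 24 h against 0 h and 0 to 2 for any change. For 24 h against 0 h Dark joined Dronc and Dcp-1 without 0 h replicate 1 (adjusted p = 0.0299). So it did without 24 h replicate 2 (0.0211) or 6 (0.0375). That 0 h array was the lowest for Dark and those 24 h arrays lay above 0, so leaving them out had to lower this difference. Leaving out a partner pair gave 0 to 2 at 0 h, at 24 h, over the times and for any change. It gave 0 to 1 at 48 h. Against 0 h it gave 0 to 2 for 12 h and 0 to 1 for 48 h. For 24 h against 0 h it gave 0 without 0 h replicates 3 and 6. Without 24 h replicates 2 and 6 Dronc, Dcp-1 and Dark were all called for that difference.

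Of 2474 values of members under the alternatives, 2384 kept their side of the threshold, 2275 of them with the same sign, 72 lost and 16 gained a call with the same sign, and 2 called values turned. In all 111 signs differed, 89 of them under alternatives other than turning replicates 4 to 6, where neither value was called (Dronc at 24 h reached 0.077 without replicates 2 and 6). Signs of called values, pathway genes included, turned only with replicates 4 to 6 turned round: to 0.028 for Dark, 0.001 for Traf6 and 0.048 for lok at 24 h, -0.056 for Fadd, 0.096 for lok, -0.019 for Ku80 and -0.085 for nbs at 12 h, -0.083 for puc and 0.012 for lok at 48 h, 0.049 for yki at 0 h, and 0.039 for lok and -0.033 for eIF3m over the times. Against 0 h they turned at 24 h to -0.058 for Dronc, 0.002 for Diap2, -0.025 for grnd, 0.051 for Traf6, 0.047 for lok, -0.019 for Corp and -0.081 for yki, at 12 h to -0.054 for Ku80 and -0.018 for Irbp, and at 48 h to 0.024 for Dredd, -0.012 for wgn and -0.001 for puc. With these arrays turned, a fitted ratio holds only the difference between dye orientations. Its sign then need not be that of the ratio, so these turns follow from the setting itself.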
